A study of Mus musculus with 8 samples.

Results

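The miR-17-92 and miR-106b-25 clusters are groups of miRNA hairpins that lie next to each other in the genome, and their 9 miRNAs were followed in mouse sperm. The members are mmu-mir-17, mmu-mir-18a, mmu-mir-19a, mmu-mir-19b, mmu-mir-20a and mmu-mir-92a of miR-17-92, and mmu-mir-106b, mmu-mir-93 and mmu-mir-25 of miR-106b-25. They were chosen by name, as the reads whose annotation names 1 of them and no other RNA, with the number of the gene copy ignored, and are 9 of 752 miRNAs that had reads of their own. Small RNA of mature sperm from the caudae epididymides was sequenced from 8 male mice, 4 with AgRP neurons activated and 4 controls, to ask whether the activity of these hypothalamic neurons changes the small RNA that sperm carry.

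Activated mice were Agrp Cre/+ and control mice Agrp +/+, and both were injected at 8 weeks of age, on both sides of the arcuate nucleus of the hypothalamus (ARH), with an AAV that carries the excitatory receptor hM3Dq-mCherry behind the hSYN promoter and needs Cre to express it. At least 3 weeks later food was taken away, CNO, the ligand of the receptor, was injected into mice of both groups 1 h afterwards (1 mg/kg), and sperm was collected another 4 h on. Virus and drug are thus shared by the groups, which differ by the Cre allele and by the receptor that it turns on in AgRP neurons. Sperm were released into PBS and washed, with no sort or lysis of other cells described. The authors tested purity by qPCR and reported strong enrichment for protamine and low enrichment for E-cadherin and C-kit. Each library was made from 100 ng of RNA of 1 mouse. No mice without virus or without CNO were sequenced, so an effect of the allele itself cannot be told apart from an effect of neuronal activity.

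MicroRNAs are cut from a hairpin, which gives a 5p and a 3p strand, and they repress mRNAs that pair with their seed, bases 2 to 8. The miR-17-92 transcript is known for driving proliferation and as an oncogene in lymphoma, and both clusters are active in dividing male germ cells. The miR-17 family represses the cell cycle inhibitor Cdkn1a, and miR-92a and miR-25 repress the death gene Bcl2l11.

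The sequences of the strand that carried most reads of each member, and of the 5p strand of mmu-mir-106b, are shown because the members group by seed, not by cluster. They are the mature miRNAs of RefSeq (GRCm38.p6), which holds all 9 members, written 5′ to 3′ with the seed in capitals. mmu-mir-17, mmu-mir-20a, mmu-mir-93 and the less frequent 5p strand of mmu-mir-106b share a seed across both clusters.
mmu-miR-17-5p: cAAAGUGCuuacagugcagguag
mmu-miR-20a-5p: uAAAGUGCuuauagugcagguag
mmu-miR-93-5p: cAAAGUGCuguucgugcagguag
mmu-miR-106b-5p: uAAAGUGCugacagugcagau
mmu-mir-18a has a related seed.
mmu-miR-18a-5p: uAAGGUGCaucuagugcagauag
mmu-mir-19a and mmu-mir-19b carry the seed of the miR-19 family on their 3p strand.
mmu-miR-19a-3p: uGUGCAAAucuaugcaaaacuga
mmu-miR-19b-3p: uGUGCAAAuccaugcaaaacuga
mmu-mir-92a and mmu-mir-25 share a seed across the clusters, also on the 3p strand.
mmu-miR-92a-3p: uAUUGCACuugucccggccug
mmu-miR-25-3p: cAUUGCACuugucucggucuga
The 3p strand of mmu-mir-106b, which gave most of its reads, has a seed of its own.
mmu-miR-106b-3p: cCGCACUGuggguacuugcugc

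The 6 hairpins of miR-17-92 span 836 bases on the plus strand (GRCm38, chr14:115043671-115044506) and lie in an exon of Mir17hg, a long noncoding host gene, in GENCODE M21. RefSeq starts that gene at base 115044390, inside the hairpin of mmu-mir-19b, so that 4 of the 6 hairpins lie before it. The 3 hairpins of miR-106b-25 span 498 bases on the minus strand (chr5:138165321-138165818) inside Mcm7, which encodes a subunit of the DNA replication helicase and is read in the same direction. The hairpin of mmu-mir-106b lies in an intron of Mcm7, while those of mmu-mir-93 and mmu-mir-25 overlap an exon of at least 1 transcript. mmu-mir-19b and mmu-mir-92a have another copy each in a related cluster on the X chromosome (chrX:52741693-52742567, minus strand), so part of their reads may come from there.

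Levels are given as RPM, the reads of an RNA for every 1000000 reads of its library. Activated libraries held 14903635, 17489698, 14757501 and 9409491 reads for replicates 1 to 4, and control libraries 12421068, 23123740, 9297271 and 14348060. Reads naming only members numbered 1101740 over the 8 samples, from 5094 of mmu-mir-19a to 522193 of mmu-mir-25. Reads have no molecular identifiers and are not independent molecules, so the spread between 4 mice was taken as the error.

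Libraries stood apart in a way that does not follow the groups. Mitochondrial rRNA made up 0.182% and 0.145% of reads in activated replicates 1 and 4, and 0.167% and 0.123% in control replicates 2 and 4, referred to as the low set. It made up 1.89% and 1.69% in activated replicates 2 and 3, and 1.21% and 1.09% in control replicates 1 and 3, the high set. Each set thus holds 2 mice of each group. Reads annotated as miRNA took 33.2% to 47.1% of the low set and 17.8% to 28.9% of the high set, so values in RPM and values per miRNA read can order the sets differently. Control replicate 4 stood alone on the first principal component of all RNA species tested (46.99% of variance), at -27.5 against -3.10 to 8.10 for the other 7 samples. In that library the 9 members took 1.90% of miRNA reads, against 3.03% to 3.56% in the others.

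Markers of other cells were read in the same libraries. The sperm and testis list (12 miRNAs, all found, led by mmu-mir-34b, with 12 of 12 estimates above 0) summed to 51270.3, 36794, 29376 and 48624 RPM in activated replicates 1 to 4 and to 31461, 43185, 23242 and 37285 RPM in controls, so the label of sperm is matched by abundant markers in every library. The epithelium list (7 of 7 found, led by mmu-mir-200c, with 7 of 7 estimates below 0) summed to 3476, 1166, 1085 and 1196 RPM in activated and 1364, 1825, 2732 and 19420.2 RPM in control samples. Each of its miRNAs was highest in control replicate 4, which weighs on these estimates. mmu-mir-203, for example, stood at 89.6, 32.5, 24.7 and 35.5 RPM in activated and 32.8, 33.9, 28.1 and 239 RPM in control samples. The muscle list (4 of 4 found, led by mmu-mir-143) summed to 392.5, 199, 138 and 292 RPM in activated samples and 200.1, 362 and 244 RPM in control replicates 1 to 3, with 35290.0 RPM in control replicate 4. Erythroid miRNAs (4 of 4 found, led by mmu-mir-451a) summed to 93.0 ± 72.4 RPM (SD, n = 4) in activated and 340 ± 184 RPM in control samples, with mmu-mir-486a at 0 in activated replicate 2 and mmu-mir-486b at 0 in activated replicates 2, 3 and 4 and control replicate 3. Leukocyte miRNAs (4 of 4 found, led by mmu-mir-142a) summed to 624 ± 192 and 411 ± 116 RPM (SD, n = 4 each). Of the 26 markers tested, edgeR called 0 at the threshold given below. At an unadjusted p under 0.05 there were 7, all lower in activated samples, beside 10 higher and 38 lower of all 587 RNA species tested. All of the 7 but mmu-mir-451a were epithelium or muscle miRNAs highest in control replicate 4, so that 1 library weighs on this count. In such bulk samples fewer cells of a type and less RNA per cell cannot be told apart.

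mmu-mir-25 was the most abundant member, with 4459.5 ± 1044 RPM over the 8 samples (SD), and ranked 10 among the 752 miRNAs. mmu-mir-92a came next (1909 ± 338 RPM, rank 22), ahead of mmu-mir-93 (921 ± 211 RPM, rank 43), mmu-mir-18a (732 ± 389 RPM, rank 50) and mmu-mir-20a (593 ± 254 RPM, rank 55). mmu-mir-19b (363 ± 171 RPM), mmu-mir-106b (252 ± 51.8 RPM), mmu-mir-17 (152 ± 45.04 RPM) and mmu-mir-19a (43.3 ± 22.7 RPM) followed. The neighbours from mmu-mir-93 down to mmu-mir-106b lay within their SD of each other, although mmu-mir-20a exceeded mmu-mir-19b in 8 of 8 samples and the other 3 neighbours kept that order in 7 of 8. The steps from mmu-mir-25 to mmu-mir-92a, from mmu-mir-92a to mmu-mir-93, from mmu-mir-106b to mmu-mir-17 and from mmu-mir-17 to mmu-mir-19a were larger than the SDs. These are levels of reads mostly of 20 to 24 nt, and how well each sequence is ligated and copied was not measured.

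**Figure D1:**
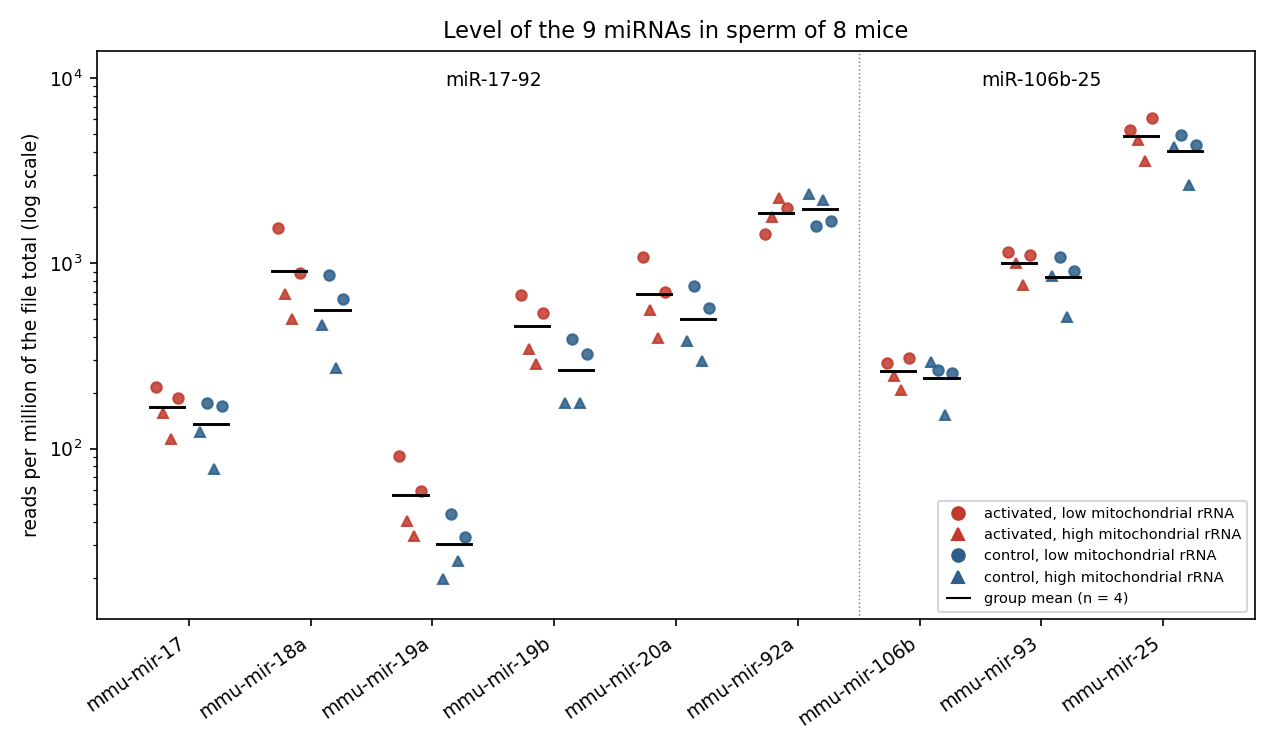
Level of each member in every library, in RPM on a log axis, with activated mice in red and controls in blue, circles for the low and triangles for the high mitochondrial rRNA set, and bars for group means. Red and blue points overlap for all 9 members, and the spread is widest for mmu-mir-18a and mmu-mir-19a.

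Activated sperm had higher mean levels of the miR-19 and miR-18 members, but no member passed the test and both groups overlapped for all 9 in RPM. mmu-mir-19a stood at 90.8, 40.4, 33.9 and 59.0 RPM in activated replicates 1 to 4 and at 19.7, 44.3, 24.6 and 33.5 RPM in control replicates 1 to 4. Activated replicates 1 and 4 were above every control, and activated replicates 2 and 3 lay among the controls. Group means were 56.0 ± 25.5 and 30.5 ± 10.8 RPM (SD, n = 4 each), a log2 fold change of 0.84 (SE 0.33, 95% interval 0.094 to 1.58, edgeR Benjamini-Hochberg adjusted p = 0.554).

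mmu-mir-19b, with the same seed, stood at 672, 345, 284 and 538 RPM in activated and at 176, 391, 176 and 323 RPM in control samples. The same 2 activated samples exceeded every control. Its log2 fold change was 0.75 (SE 0.34, 95% interval -0.0084 to 1.52, edgeR adjusted p = 0.559). mmu-mir-18a stood at 1552, 682, 498 and 882 RPM in activated and at 464, 863, 273 and 642 RPM in control samples. Activated replicate 1 was the highest of the 8 by a wide margin. Its log2 fold change was 0.64 (SE 0.39, 95% interval -0.24 to 1.53, edgeR adjusted p = 0.590), 0.35 without activated replicate 1 and 0.12 by DESeq2, which shrinks it.

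The members whose main strand has the AAAGUGC seed had smaller estimates. mmu-mir-20a stood at 1082, 556, 396 and 703 RPM in activated and at 379, 754, 298 and 576 RPM in control samples, with a log2 fold change of 0.41 (SE 0.34, edgeR adjusted p = 0.644). mmu-mir-17, the first hairpin of its cluster, stood at 216, 156, 113 and 188 RPM against 122, 175, 77.8 and 171 RPM, with a log2 fold change of 0.29 (SE 0.30, edgeR adjusted p = 0.671). In RPM the low set held the 4 highest values of both miRNAs whatever the group, which per miRNA read it did not. mmu-mir-93 stood at 1148, 1000.2, 761 and 1103 RPM against 857, 1074, 513 and 910.0 RPM, with a log2 fold change of 0.27 (SE 0.26, edgeR adjusted p = 0.671). mmu-mir-106b, most of whose reads carry the seed of its 3p strand, stood at 291, 246, 207 and 309 RPM against 294, 264, 151 and 257 RPM, with a log2 fold change of 0.14 (SE 0.24, edgeR adjusted p = 0.758). Control replicate 3 was the lowest sample for these 4 miRNAs, and without it the log2 fold changes were 0.22 for mmu-mir-20a, 0.086 for mmu-mir-17, 0.086 for mmu-mir-93 and -0.041 for mmu-mir-106b.

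Of the miRNAs with the AUUGCAC seed, mmu-mir-25 stood at 5223, 4637, 3559.7 and 6096 RPM in activated and at 4254, 4907, 2648 and 4352.5 RPM in control samples. Its log2 fold change was 0.28 (SE 0.25, 95% interval -0.28 to 0.85, edgeR adjusted p = 0.653), and 0.12 without control replicate 3. mmu-mir-92a stood at 1434, 1766, 2255 and 1992 RPM against 2353, 1588, 2192 and 1695 RPM. Activated replicate 1, the highest sample for 6 of the other members, was the lowest of all for mmu-mir-92a. Its log2 fold change was 0.00090 (SE 0.28, 95% interval -0.63 to 0.63, edgeR adjusted p = 0.999) and took either sign under other settings.

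Calls were made where the edgeR adjusted p was below 0.05 and the estimate was also more than 1 from 0 on the log2 scale. edgeR called 0 of 9 members and 0 of 587 RNA species tested (0% in all), and 1 member, mmu-mir-19a, was under an unadjusted p of 0.05, as were 48 of the 587 species (10 higher and 38 lower). DESeq2 called 0 members and 3 of 587 species (0.511%), all lower, with 2 members (mmu-mir-19a and mmu-mir-19b) under an unadjusted p of 0.05, beside 27 species higher and 39 lower of the 587 at this level. Groups did not overlap for 0 of 9 members, against 13 of 587 species (2.21%). Per miRNA read they did not overlap for 2 of 9, mmu-mir-19a and mmu-mir-19b, against 7 of 247 single miRNAs (2.83%), a denominator chosen after seeing the data. All 9 estimates were above 0, with a median log2 fold change of 0.29. Among the 247 single miRNA species tested, 148 were above 0 and the median was 0.14. The 12 sperm and testis markers had a median of 0.38, higher than that of the members, again with all 12 above 0. Without control replicate 4 the median of single miRNAs was 0.33, and 5 of 9 members lay above it, against 7 to 9 under the other settings tried. Without that library the log2 fold changes of mmu-mir-19a, mmu-mir-19b and mmu-mir-18a were 0.87, 0.85 and 0.71, that of mmu-mir-92a was -0.12, and edgeR called 0 members, with 2 (mmu-mir-19a and mmu-mir-19b) under an unadjusted p of 0.05, beside 13 species higher and 56 lower of 574. At this level edgeR had 0 members without activated replicate 1, activated replicate 4, control replicate 1 or control replicate 3, with 8, 5, 2 and 6 species higher and 28, 12, 49 and 29 lower in that order, so that single libraries of both groups decide whether mmu-mir-19a falls under it. It did not with the replicate numbers as a block either, where mmu-mir-19b alone did, beside 11 species higher and 18 lower of 587. With miRNA species alone in the fit the median was -0.018, with mmu-mir-92a at -0.23 and mmu-mir-106b at -0.033 and the other 7 members above 0.

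**Figure D2:**
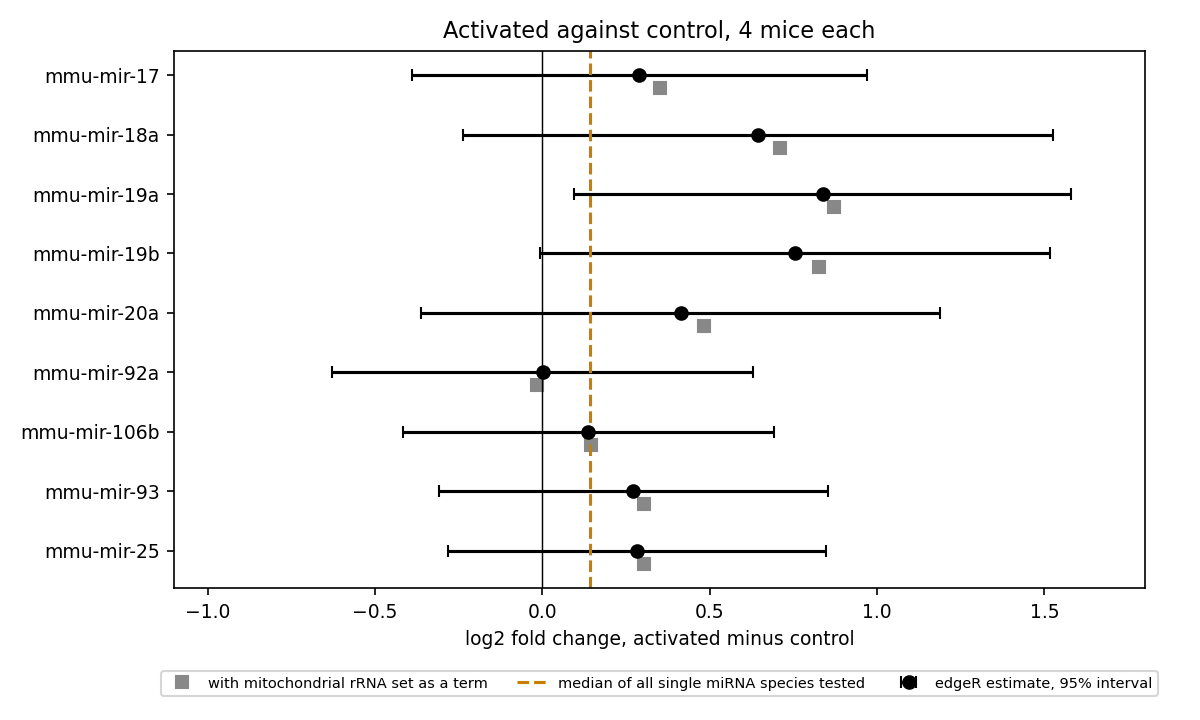
Log2 fold change of each member, activated minus control (4 mice each), with the edgeR 95% interval as bars, the estimate with the mitochondrial rRNA set as a term as grey squares and the median of all single miRNA species tested as a dashed line. Every interval but that of mmu-mir-19a includes 0, and the median of 0.14 lies inside all 9 intervals.

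In RPM the ratio of activated to control means was above 1 within both sets of libraries for each member but mmu-mir-92a. It was 1.62 in the low and 1.60 in the high set for mmu-mir-18a, 1.93 and 1.68 for mmu-mir-19a, and 1.69 and 1.79 for mmu-mir-19b. The other 5 members had smaller ratios, such as 1.34 and 1.41 for mmu-mir-20a and 1.22 and 1.19 for mmu-mir-25. For mmu-mir-92a it was 1.04 and 0.885, on either side of 1. Per miRNA read the ratio within the high set fell below 1 for mmu-mir-106b too, at 0.885. It was then 1.01 for mmu-mir-25 and 1.34 for mmu-mir-19a in that set. Each of these compares 2 mice with 2 and was not tested. With the set as a term in the edgeR fit, 3 members (mmu-mir-18a, mmu-mir-19a and mmu-mir-19b) were under an unadjusted p of 0.05 and 0 were called. In that fit 37 of the 587 species were higher and 26 lower at this level, against 10 and 38 without the term, and 0 were called. The 3 members' log2 fold changes were then 0.71, 0.87 and 0.83, with edgeR adjusted p of 0.421, 0.322 and 0.319.

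Between the sets the members differed in RPM, and part of these differences depends on the denominator. mmu-mir-20a averaged 779 ± 216 RPM in the low and 407 ± 108 RPM in the high set (SD, n = 4 each), a ratio of 1.91, with no overlap between the sets. mmu-mir-17 averaged 187 ± 20.4 and 117 ± 32.2 RPM, also without overlap. mmu-mir-18a, mmu-mir-19b and mmu-mir-19a had ratios of low to high of 2.05, 1.96 and 1.92, with overlap. mmu-mir-92a went the other way, at 1677 ± 236 RPM in the low and 2142 ± 259 RPM in the high set, a ratio of 0.783, with overlap. In miR-106b-25 the ratios were 1.25 for mmu-mir-106b, 1.35 for mmu-mir-93 and 1.36 for mmu-mir-25, with overlap. Per miRNA read the ratio of low to high was 1.01 for mmu-mir-17, 1.21 for mmu-mir-20a, 1.20 to 1.33 for the miR-18 and miR-19 members, all with overlap, and 0.469 for mmu-mir-92a, without overlap. It fell below 1 for all 3 members of miR-106b-25, at 0.786 for mmu-mir-106b, without overlap, 0.861 for mmu-mir-93 and 0.862 for mmu-mir-25. The 9 members together stood at 10649 RPM in the low and 8202 RPM in the high set, but took 2.80% and 3.45% of miRNA reads, so that the direction of the sum, as of these 3 members, turned with the denominator. The sets were defined from the libraries, not from the design, and were not tested. The sum of the sperm and testis list was also higher in each library of the low set than in any of the high set. Its most abundant miRNA, mmu-mir-34b, did not follow the sum. It stood at 6686 and 9481 RPM in activated and 7071 and 7653 RPM in control samples of the low set. In the high set it stood at 7752 and 9792 RPM in activated and 9498 and 8622 RPM in control samples. The part of this list in the differences between the sets was not tested.

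Summed over its members, miR-17-92 reached 5047, 3545, 3581 and 4362 RPM in activated and 3514, 3815, 3040.3 and 3439.7 RPM in control samples. Its mean in activated sperm was 1.20 of that in controls, and 1.30 within the low and 1.09 within the high set. miR-106b-25 reached 6661, 5883, 4528 and 7507 RPM in activated and 5405, 6245, 3313 and 5519.6 RPM in control samples, also 1.20 of controls, and 1.20 and 1.19 within the sets. The sum of the sperm and testis list in activated samples was 1.23 of that in controls, and its part in the cluster totals was not tested. Groups overlapped for both clusters, and single samples moved both values. On the log2 scale miR-106b-25 stood at 0.26, with 0.10 without control replicate 3, 0.15 without activated replicate 4 and 0.38 without activated replicate 3, and miR-17-92 at 0.26, with 0.15 without activated replicate 1. Per miRNA read in place of all reads the ratios were 1.07 for miR-17-92, with 0.912 within the high set, and 1.11 for miR-106b-25. Without control replicate 4 these were 0.942 and 1.002, below 1 for miR-17-92 and near 1 for miR-106b-25. By seed, the 3p strands of the miR-19 pair summed to 514 ± 203 and 296 ± 118 RPM (SD, n = 4 each), or 1.73 of controls. The 4 strands with the AAAGUGC seed summed to 1676 ± 458 and 1343 ± 434 RPM, of which mmu-mir-93 gave 58.1%. mmu-mir-25 and mmu-mir-92a together reached 6736 ± 965 and 5991 ± 807 RPM.

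The balance among members was steady in miR-106b-25 and uneven in miR-17-92. In miR-106b-25, mmu-mir-25 took 79.3% ± 1.31 of the reads in activated and 79.0% ± 0.624 in control samples (SD, n = 4 each). mmu-mir-93 took 16.4% ± 1.18 and 16.3% ± 0.750, and mmu-mir-106b took 4.31% ± 0.208 and 4.72% ± 0.509. In miR-17-92, mmu-mir-92a took 28.4%, 49.8%, 63.0% and 45.7% in activated replicates 1 to 4 and 67.0%, 41.6%, 72.1% and 49.3% in control replicates 1 to 4. Its share was lower in all 4 samples of the low set than in any of the high set, although control replicate 4 (49.3%) and activated replicate 2 (49.8%) nearly met. mmu-mir-18a took 30.8%, 19.2%, 13.9% and 20.2% in activated and 13.2%, 22.6%, 8.98% and 18.7% in control samples. It took a larger share than mmu-mir-92a in activated replicate 1 alone.

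mmu-mir-20a took 16.1% ± 4.24 and 14.3% ± 4.78, mmu-mir-19b 10.8% ± 2.45 and 7.60% ± 2.60, mmu-mir-17 4.04% ± 0.591 and 3.90% ± 1.09, and mmu-mir-19a 1.31% ± 0.366 and 0.876% ± 0.255 (SD, n = 4 each). The ratio of mmu-mir-92a to the sum of the other 5 members ranged from 0.397 in activated replicate 1 to 2.58 in control replicate 3. In the high set mmu-mir-92a took 63.0% on average and mmu-mir-20a 11.8%, against 41.2% and 18.5% in the low set.

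Each member was then compared with the rest of its cluster, as the log2 ratio of its reads to those of the other members. For mmu-mir-92a this ratio averaged -0.21 in activated and 0.46 in control samples, a difference of -0.67 (SE 0.53, 95% interval -1.88 to 0.54). mmu-mir-19b and mmu-mir-19a differed by 0.60 (SE 0.30) and 0.59 (SE 0.28), and mmu-mir-18a by 0.53 (SE 0.40), or 0.24 without control replicate 3 and 0.26 without activated replicate 1. In miR-106b-25 the differences were -0.13 (SE 0.13) for mmu-mir-106b, with -0.062 without control replicate 1, 0.017 (SE 0.13) for mmu-mir-93 and 0.023 (SE 0.12) for mmu-mir-25. limma, fitted over 93 miRNAs that lie in clusters, gave an adjusted p of 0.981 for each member and called 0 of 9, and 0 of the 93 (0%). At an unadjusted p under 0.05 there were 0 members and 2 of the 93, and no other tool was run on these ratios. With 1 sample left out the difference for mmu-mir-92a ranged from -0.996 without activated replicate 3 to -0.30 without activated replicate 1, with -0.37 without control replicate 3 and -0.84 without control replicate 4, and 0 members were called in each.

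**Figure D3:**
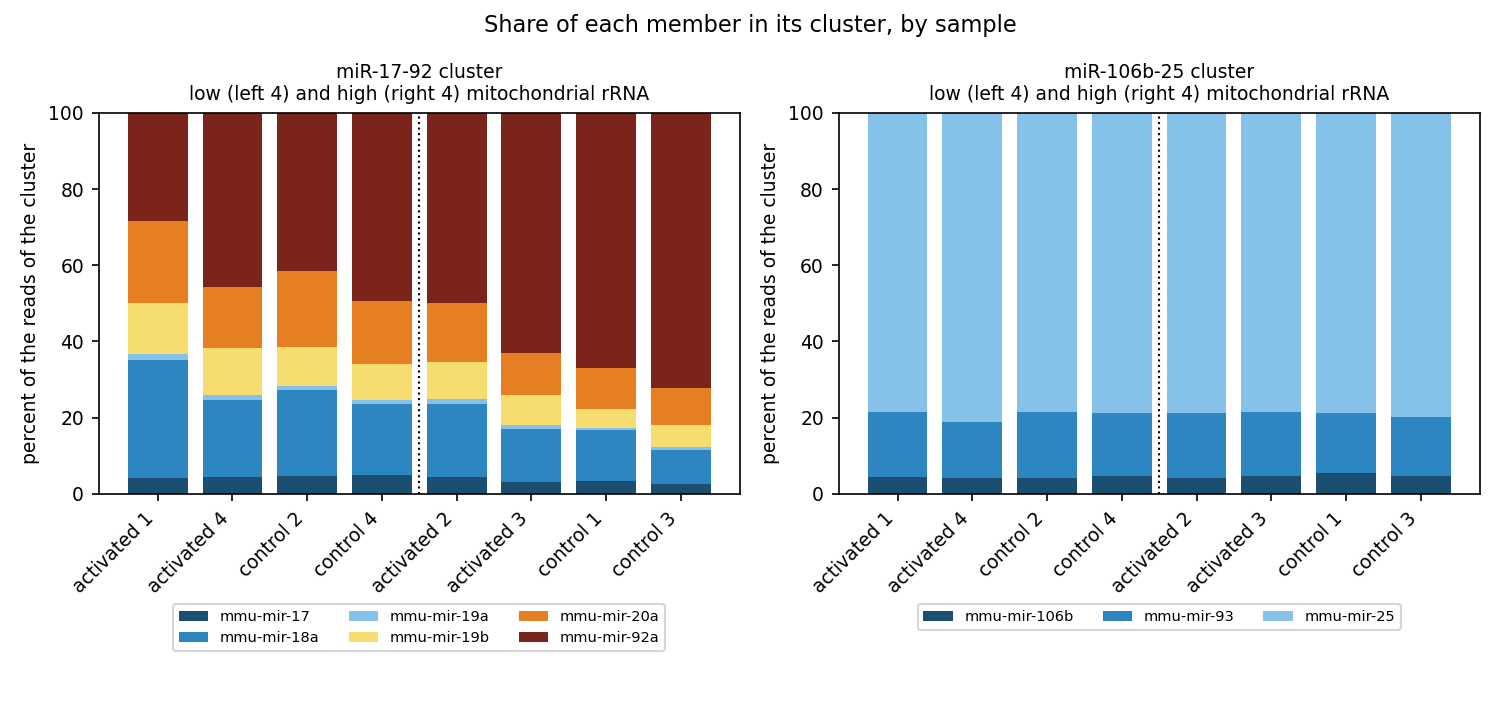
Percent of the reads of each cluster that each member took, 1 bar per library, with the low mitochondrial rRNA set to the left of the dotted line and the high set to the right. The share of mmu-mir-92a runs from 28.4% to 72.1%, while that of mmu-mir-25 stays between 78.4% and 81.2%.

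The copy of mmu-mir-92a that gave a read can be told where the read ends 1 base beyond the part both copies share. The most frequent such fragments are shown as the files write them, with the last base in capitals.
mmu-mir-92a-1: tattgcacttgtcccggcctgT
mmu-mir-92a-2: tattgcacttgtcccggcctgA
The first, which matches the hairpin of miR-17-92 and no other, stood at 1444 ± 293 RPM in activated and 1501 ± 296 RPM in control samples (SD, n = 4 each). The second, from the X-linked hairpin, stood at 14.3 ± 2.32 and 16.9 ± 2.63 RPM. Over all mmu-mir-92a reads 86.5% named the copy in miR-17-92 alone, 0.837% the X-linked copy alone and 12.7% both. A last base added after processing would be read the same way, which was not tested. For mmu-mir-19b 98.8% of reads named both copies, so its source was not resolved.

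The members differed widely in the strand that gave their reads. mmu-mir-18a gave 99.5% ± 0.306 of its reads from the 5p arm in activated and 99.2% ± 0.386 in control samples (SD, n = 4 each), and mmu-mir-93 gave 95.7% ± 0.750 and 95.5% ± 0.973. mmu-mir-20a (81.8% ± 3.28 and 82.6% ± 1.64) and mmu-mir-17 (72.5% ± 2.44 and 71.2% ± 2.37) also kept a sizeable 3p part. mmu-mir-19a, mmu-mir-19b, mmu-mir-92a and mmu-mir-25 gave over 99% from the 3p arm when reads were pooled, with 0.530%, 0.285%, 0.0256% and 0.107% from the 5p arm.

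mmu-mir-106b was the member with the arm share that varied most, at 20.99%, 8.56%, 8.05% and 9.20% from the 5p arm in activated replicates 1 to 4 and 5.15%, 12.5%, 11.6% and 21.01% in control replicates 1 to 4. The 2 high values, in activated replicate 1 and control replicate 4, came from the libraries with the highest epithelium sums of their groups (3476 and 19420.2 RPM). Both libraries are also in the low mitochondrial rRNA set, where the share averaged 15.9%, against 8.34% in the high set, with overlap. The most frequent 5p fragment of mmu-mir-106b stood at 15.9 ± 5.88 RPM in the low and 6.47 ± 1.42 RPM in the high set, without overlap. The part of the epithelium or of the sets in this was not tested. The 5p arm of mmu-mir-106b carries the AAAGUGC seed and averaged 31.8 ± 20.1 RPM in activated and 29.9 ± 17.9 RPM in control samples (SD, n = 4 each). It stood at 61.1 RPM in activated replicate 1, 54.0 RPM in control replicate 4 and between 15.1 and 33.0 RPM in the others. The log2 ratio of 5p to 3p reads differed by -0.074 (SE 0.55) between groups, with a limma adjusted p of 0.977, and by 0.28 without control replicate 4. Among 149 miRNAs with both arms limma called 0 (0%), and 0 of the 8 members tested, mmu-mir-19a having too few 5p reads. At an unadjusted p under 0.05 there were 0 members and 6 of the 149, and no other tool was run on these ratios. The lowest p of a member was that of mmu-mir-25, with a difference of -0.61 (SE 0.32, 95% interval -1.34 to 0.13, limma adjusted p = 0.828), and mmu-mir-18a differed by 0.67 (SE 0.52, limma adjusted p = 0.905). The difference for mmu-mir-92a (1.20, SE 1.18) rests on 55 reads of its 5p arm, and was 0.46 with a pseudocount of 5, 0.23 without control replicate 2 and 2.19 without control replicate 4.

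**Figure D4:**
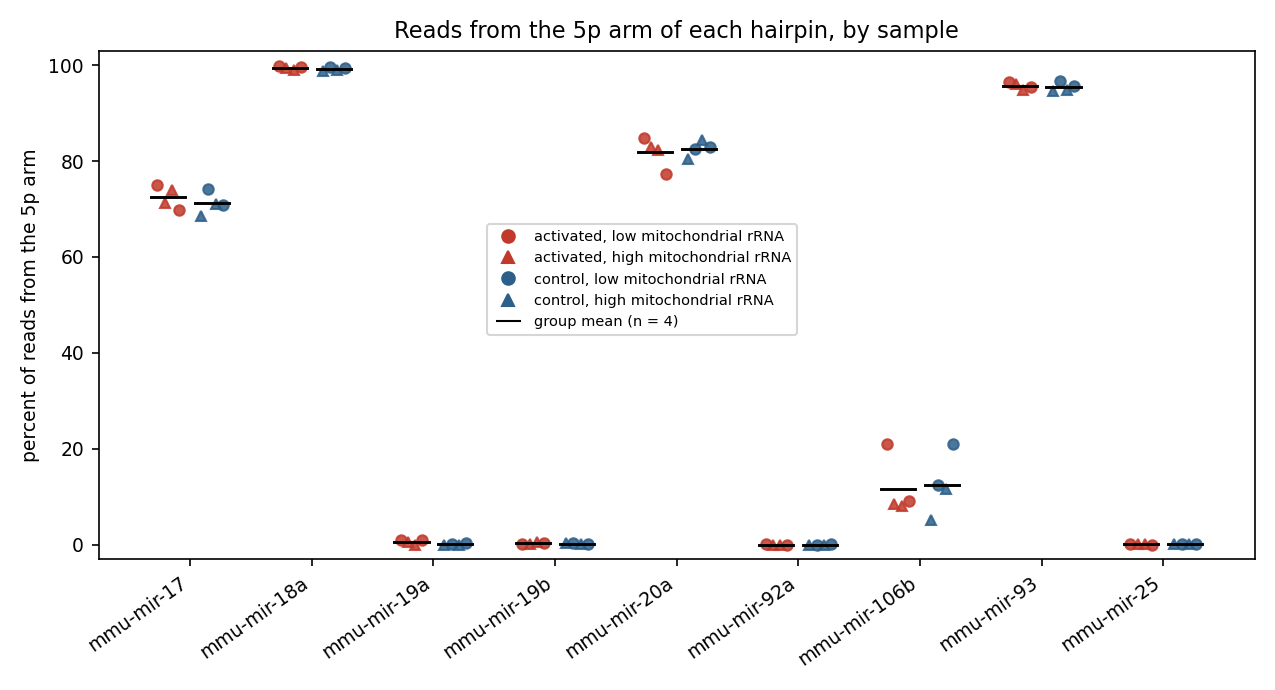
Percent of the reads of each member that came from the 5p arm of its hairpin, 1 point per library, with groups, sets and means drawn as in the plot of levels. mmu-mir-106b has 1 high library in each group, at 20.99% and 21.01%, while its other 6 lie between 5.15% and 12.5%.

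Most reads began at the 5′ end that RefSeq gives, so that the seed was as shown above. The share over all samples was 99.9% for mmu-mir-18a and mmu-mir-93, 99.8% for mmu-mir-20a and 99.7% for mmu-mir-25, each on its main arm. The exceptions were mmu-mir-19a, where 80.3% began there and 19.2% began 1 base earlier, mmu-mir-106b, where 5.92% of 3p reads began 2 bases earlier, and mmu-mir-17, where 4.70% began 1 base earlier. An earlier start moves the seed by as many bases. For mmu-mir-19a the share at the RefSeq start was 81.8% ± 2.98 in activated and 78.9% ± 1.99 in control samples (SD, n = 4 each), with overlap.

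The 3′ ends were less uniform. mmu-mir-25 was mostly 1 form, with 94.4% of its 3p reads equal to the 22-base RefSeq sequence. The main form of mmu-mir-92a was 1 base longer than RefSeq, with 77.2% of 3p reads in the 22-base form shown above and 6.10% equal to RefSeq. mmu-mir-18a had no leading form, since reads of 20, 21, 23 and 24 nt took 13.2%, 28.5%, 23.1% and 26.1% and those of 22 nt 8.16% of its 5p arm, averaged over the 8 samples. mmu-mir-19b (41.4% at 21 nt, 6.67% at 22 nt and 49.7% at 23 nt) and mmu-mir-19a (41.1%, 18.7% and 34.2%) likewise had a pair of lengths with a dip between. mmu-mir-106b-3p was short, with 44.7% at 20 nt and 36.8% at 21 nt. mmu-mir-17, mmu-mir-20a and mmu-mir-93, alike in seed and 3′ part, each had most reads at 23 nt (51.7%, 61.0% and 56.6%) and next at 24 nt (35.3%, 33.2% and 32.0%). Mean lengths overlapped between the groups for all 9 members.

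**Figure D5:**
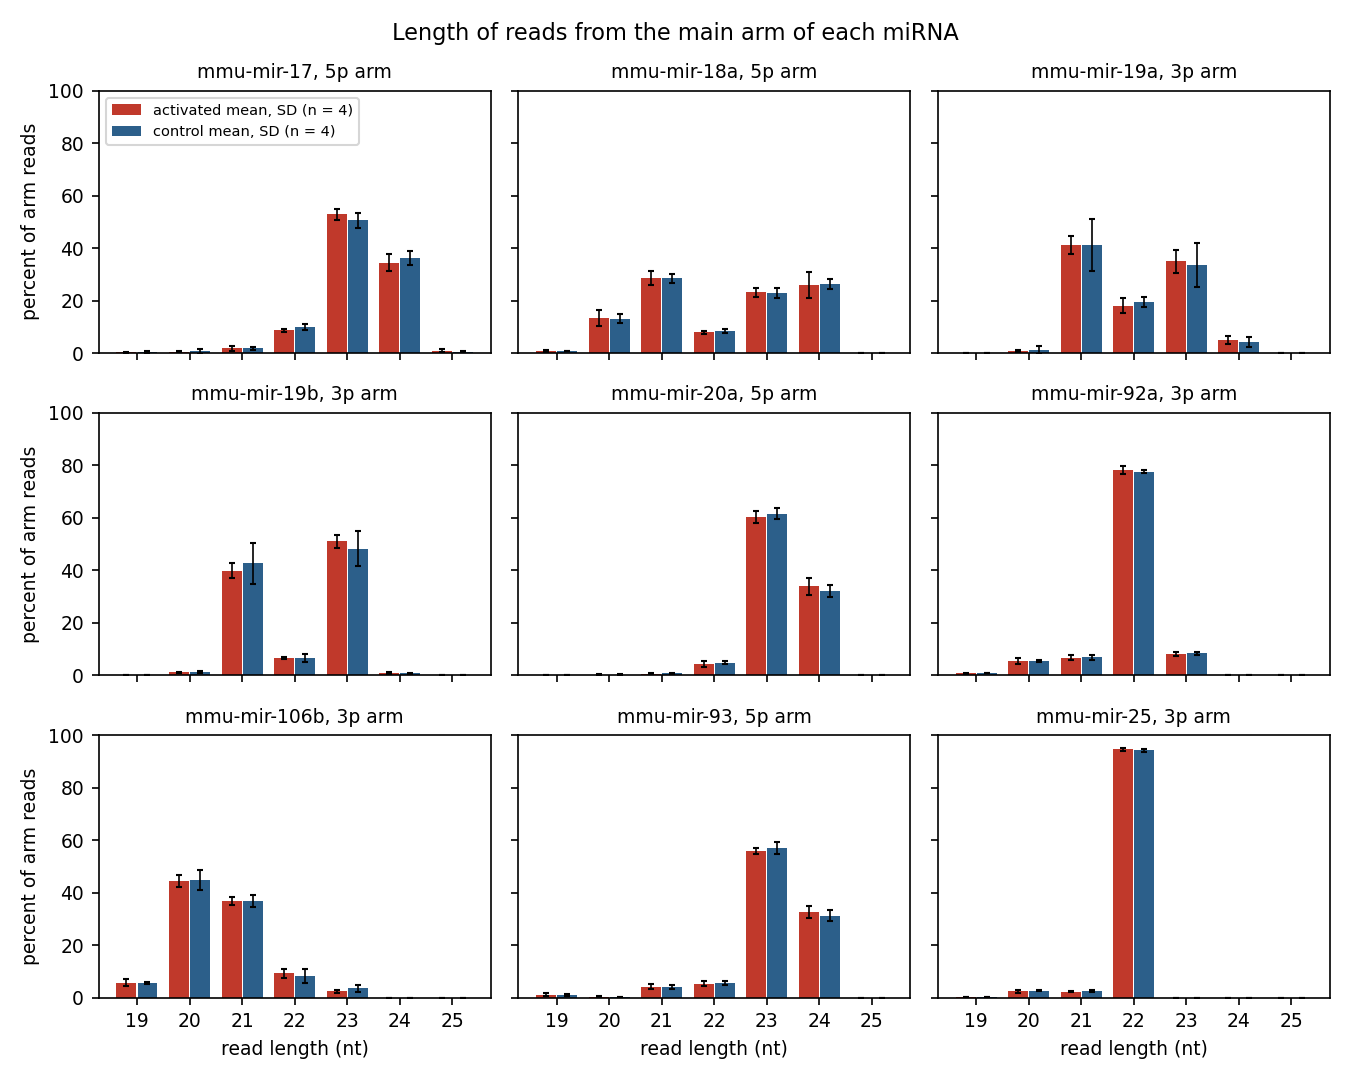
Percent of the reads of each member's main arm at each length from 19 to 25 nt, as means with SD over 4 activated (red) and 4 control (blue) mice. The profiles of the groups lie within their SD at the main lengths, and mmu-mir-18a, mmu-mir-19a and mmu-mir-19b have a dip at 22 nt.

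Distinct fragments were also tested one by one, which is the unit the study compared. Of 360 fragments of members, 56 reached 50 counts in 4 or more samples, 48 with an estimate above 0 and 8 below. edgeR called 0 of the 56, against 52 of 12077 fragments in all (0.431%), and 0 were under an unadjusted p of 0.05, against 418 higher and 454 lower of the 12077. DESeq2 also called 0 of the 56, with 0 under an unadjusted p of 0.05, against 240 of 12077 fragments called (1.99%) and 482 higher and 498 lower at that level. Without activated replicate 3 edgeR called 0 member fragments and had 3 under an unadjusted p of 0.05, all higher, of mmu-mir-93-5p (20 nt), mmu-mir-19b-3p (22 nt) and mmu-mir-19a-3p (23 nt), against 213 higher and 367 lower of 10071 fragments. Groups did not overlap for 0 of the 56, against 481 of 12077 (3.98%). The median log2 fold change was 0.24 for the 56 and 0.14 for 964 fragments of single miRNAs, with 37 of the 56 above the latter. Without control replicate 4 the order turned, with 0.41 for member fragments and 0.46 for those of single miRNAs, and 25 of 54 above it. For the most frequent fragment of each member and arm (18 in all, 13 with enough counts) the log2 fold change ran from -0.053 for mmu-mir-92a-3p to 0.82 for mmu-mir-19a-3p, with edgeR adjusted p between 0.827 and 0.993. That of mmu-mir-25-3p, the most abundant of all, stood at 4897, 4391, 3387 and 5771 RPM in activated and 4029, 4624, 2479.7 and 4079.8 RPM in control samples.

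Of 15 related miRNAs, the other members of the X-linked cluster and miRNAs with the same or a near seed, 5 had enough counts, 6 had fewer and 4 had no reads. mmu-mir-294, an embryonic stem cell miRNA with a seed close to that of mmu-mir-17, was the highest at 116 ± 41.2 RPM in activated and 89.2 ± 31.4 RPM in control samples (SD, n = 4 each). mmu-mir-32, which has the seed of mmu-mir-25, stood at 40.9 ± 25.7 and 30.3 ± 11.6 RPM, and mmu-mir-92b at 19.9 ± 2.71 and 20.97 ± 4.18 RPM. mmu-mir-295 (16.2 ± 5.30 and 11.6 ± 3.28 RPM) and mmu-mir-291a (8.37 ± 1.53 and 5.85 ± 1.57 RPM) lie in 1 cluster with mmu-mir-294. edgeR called 0 of these 5, of which 4 were above 0 and 0 under an unadjusted p of 0.05, with log2 fold changes from -0.012 to 0.54. mmu-mir-106a, mmu-mir-18b, mmu-mir-20b and mmu-mir-363 of the X-linked cluster were among the 6 with few counts, none above 2.68 RPM in either group mean.

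The miRNAs that varied most like each cluster were found by Pearson correlation of log2 levels over the 8 samples, among 238 other single miRNAs, as a description into which library composition and both sets of libraries enter. For miR-17-92 these were mmu-mir-297a (0.961), mmu-mir-532 (0.957), mmu-mir-142a (0.921), mmu-mir-598 (0.896) and mmu-mir-466f (0.887). For miR-106b-25 they were mmu-mir-871 (0.987), mmu-mir-883b (0.982), mmu-mir-324 (0.976), mmu-mir-148b (0.966) and mmu-mir-465c (0.963). Of these 10, mmu-mir-871 and mmu-mir-465c belong to the sperm and testis list and mmu-mir-142a leads the leukocyte list. The leukocyte sum in activated samples was 1.52 of that in controls, and the 3 tested members of the list had estimates above 0. They were not alike, with 0.53 for mmu-mir-142a, 0.028 for mmu-mir-223 and 1.31 for mmu-mir-150, which was highest in activated replicate 3 (245 RPM). mmu-mir-155, with too few counts to test, averaged 1.99 RPM in activated and 2.42 RPM in control samples. The part of the cells of either list in the levels of either cluster was not tested. Within miR-17-92, mmu-mir-92a correlated negatively with every other member, from -0.74 with mmu-mir-20a to -0.50 with mmu-mir-17. A miRNA that varied like this cluster therefore need not have varied like each of its members.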

How the data were processed

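Small RNA of mature sperm was sequenced from 8 mice (100 ng of RNA, single reads of 50 bp). The authors trimmed reads, kept lengths of 15 to 45 bp without removing duplicates, and matched them by SPORTS1.1 with Bowtie at 0 mismatches to mm10 and to small RNA databases (miRBase release 21). The deposited values are raw counts, the reads of each distinct sequence with its annotation.

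Counts were summed per RNA species, the names in an annotation without copy suffix. A read naming a member and another RNA was left out (150 reads in 3 fragments, all mmu-mir-18a with mmu-mir-18b). Species and fragments that reached 50 counts in 4 or more samples were tested by edgeR 4.0.16 (TMM, quasi-likelihood, file totals as library sizes) in R 4.3.3, with Benjamini-Hochberg adjustment over all tested, and by DESeq2 1.42.0 with apeglm 1.24.0. Log2 ratios (pseudocount 0.5) of a member to its cluster and of 5p to 3p reads were tested with limma 3.58.1 over all clustered miRNAs (hairpins at most 10000 bases apart) and all with both arms (at least 50 counts each). Arms were assigned by position in RefSeq hairpins, which 620 of 752 single miRNAs matched. The tests were tried on simulated data. Samples held 9297271 to 23123740 reads, and the spread between mice was taken as the error. The replicate numbers in the titles were not used to pair samples. Python 3.11.15, pandas 2.3.3 and matplotlib 3.10.9 were used.

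Named were all members, related miRNAs with enough counts from a list of 15, and the most frequent fragment per member and arm. Members and lists were chosen with earlier results of these data known. Alternatives were other scaling, tools, count minimums, denominators and read classes, a replicate block, the mitochondrial rRNA set as a term and leaving out each sample. Summaries per annotation class were not used.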

Additional observations from a re-analysis of the deposited data

Results flagged for a closer look

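In 10 of 68 groups of 4 samples examined, 1 sample lay far from the other 3, measured as its gap to the nearest sample over the whole range of the group. Chance alone flags about 1 in 20 groups of independent values. The groups here come from the same 8 libraries and some are parts of 1 whole, so the count cannot be set against that rate.

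In activated sperm, mmu-mir-17 took 3.15% of its cluster in replicate 3, against 4.28% to 4.40% in the others (gap over range 0.903). Activated replicate 4 had the lowest share of mmu-mir-93, 14.7% against 16.8% to 17.2% (0.836), and the highest share of mmu-mir-25, 81.2% against 78.4% to 78.8% (0.850), which are parts of 1 whole. The 5p arm gave 0.0983% of mmu-mir-92a reads in activated replicate 1, against 0.0107% to 0.0150% in the others (0.950), and 0.0781% in control replicate 4, against at most 0.00981% (0.874). The 5p arm of mmu-mir-106b gave 20.99% in activated replicate 1, against 8.05% to 9.20% (0.911).

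These 2 libraries also stood out in the marker lists. In activated replicate 1 the epithelium list summed to 3476 RPM, against 1085 to 1196 in the others (0.954), and the erythroid list to 201 RPM, against 47.9 to 64.6 (0.891). In control replicate 4 the epithelium list summed to 19420.2 RPM, against 1364 to 2732 (0.924), and the muscle list to 35290.0 RPM, against 200.1 to 362 (0.995). Whether the arm shares follow from these markers was not tested.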

How the results depend on the processing

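No member was called under any of 20 alternatives to the test of levels, in which the lowest adjusted p of a member was 0.243 (mmu-mir-19a, DESeq2, range over its alternatives to 0.843), nor under any alternative to the tests of fragments, cluster shares and arms. Members under an unadjusted p of 0.05 numbered 1 as reported and 0 to 3 over the alternatives, 3 with the mitochondrial rRNA term and 0 without any of activated replicates 1 and 4 or control replicates 1 and 3. The log2 fold changes of mmu-mir-17, mmu-mir-18a, mmu-mir-19a, mmu-mir-19b, mmu-mir-20a, mmu-mir-93 and mmu-mir-25 stayed above 0 in all 20, but ranged widely, from 0.086 to 0.40, 0.12 to 0.89, 0.54 to 1.04, 0.37 to 0.96, 0.099 to 0.64, 0.086 to 0.39 and 0.11 to 0.36 in that order, lowest with DESeq2, which shrinks estimates, or without control replicate 3. That of mmu-mir-92a (0.00090) fell below 0 in 15, at -0.0013 with median-ratio factors, -0.072 with file totals, -0.0031 with DESeq2, -0.0012 at a minimum of 10 counts, -0.23 with miRNA species only, -0.050 with genome-matched reads, -0.099 for 20 to 24 nt, -0.013 with shared reads divided, -0.017 with the mitochondrial rRNA term and -0.25 with miRNA reads as library size, an alternative chosen after seeing the data. Leaving out 1 sample moved it between -0.20 and 0.12. mmu-mir-106b was -0.033 with miRNA species only and between -0.041 and 0.22 with 1 sample left out. The cause was not tested.

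DESeq2 called 3 species in all, where edgeR called 0. The 52 fragments called in all became 240 with DESeq2, 256 at a minimum of 10 counts and 0 to 54 with 1 sample left out (0 without any of activated replicates 1, 3 and 4 or control replicates 2, 3 and 4, and 15 without activated replicate 2); none was of a member. With a replicate block, 0 species and 0 fragments were called (0 in place of 52), and mmu-mir-92a was -0.036. The labels do not say what the numbers mark. Same-numbered samples correlated at -0.51, 0.043, 0.53 and -0.11 in their deviations from the group means. Not every sample correlated best with its own number. Library composition also enters these correlations, so they cannot decide whether the numbers pair samples. The block called no share or arm ratio.

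Signs also turned for small differences with 1 sample left out. The log2 share differences of mmu-mir-93, mmu-mir-25 and mmu-mir-17 ranged from -0.012 to 0.080, from -0.035 to 0.050 and from -0.11 to 0.22. Those of mmu-mir-92a and mmu-mir-106b stayed below 0, from -0.996 to -0.30 and from -0.19 to -0.062, and those of mmu-mir-18a, mmu-mir-19a, mmu-mir-19b and mmu-mir-20a above 0, from 0.24 to 0.76, 0.39 to 0.75, 0.41 to 0.78 and 0.040 to 0.43. The log2 arm differences ranged from -0.16 to 0.083 for mmu-mir-20a, from -0.49 to 0.28 for mmu-mir-106b, from -0.041 to 0.23 for mmu-mir-93 and from -0.11 to 0.54 for mmu-mir-19b, which was also -0.089 with a pseudocount of 5. Those of mmu-mir-92a, mmu-mir-25 and mmu-mir-18a ranged from 0.23 to 2.19, -0.74 to -0.41 and 0.33 to 0.99. The log2 cluster totals ranged from 0.15 to 0.33 for miR-17-92 and from 0.10 to 0.38 for miR-106b-25. With miRNA reads as denominator they were 0.098 and 0.15, and also without control replicate 4, an alternative chosen after seeing the data, -0.086 and 0.0028.

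Depth sets few limits for main arms, but the 5p arms of mmu-mir-19a (27 reads) and mmu-mir-92a (55 reads) are too thin for a balance. The 95% interval of each member's log2 fold change spans more than 1 unit.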
